A study of Rattus norvegicus with 27 samples.

Results

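Messenger RNA of 6 genes that mark or control cell division was followed in primary rat lung fibroblasts over 7 groups of culture surface and day. The genes were chosen by name and Ensembl rat gene ID. They are Mki67 (ENSRNOG00000028137), Top2a (ENSRNOG00000053047), Cdk1 (ENSRNOG00000000632), Pcna (ENSRNOG00000021264), Ccnd1 (ENSRNOG00000020918) and Cdkn1a (ENSRNOG00000000521), which are 6 of the 32753 genes in the deposited count table. The table holds IDs only, and the 6 names come with the choice of genes.

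The cells were bead-sorted from lung for CD90, a surface antigen of fibroblasts and some other cells, and the donor strain was the outbred Sprague-Dawley rat. All groups shared this sort, a coat of rat tail collagen I and the same MucilAir culture medium, and the labels name no agent. The lower bound of the seeding density was 500000 cells per cm2 in all 27 libraries. In the headers of the count table all 27 columns carry the terms Non, MonoCulture and WT, which are not spelled out there. The soft surface was PDMS, a silicone of 3 to 5 kPa that is far softer than the plastic it was set against. The groups were PDMS at days 2, 4, 7 and 14 and plastic at days 4, 7 and 14. Each had 4 libraries except Plastic day 7, which had 3, numbered 1, 3 and 4, and PDMS day 2 had no plastic group beside it. The labels do not name the age of the rats, the passage of the cells or the animal behind a library, so a p-value here reflects library-to-library spread only, and some of that spread may be technical. The fibroblast label was not checked here against marker genes, because no table pairs the IDs with symbols.

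Mammalian cells divide by passing through phases of growth, DNA replication and mitosis. Cyclin D1, the product of Ccnd1, activates the kinases CDK4 and CDK6 and so carries growth signals into the start of the cycle. PCNA is the sliding clamp that holds DNA polymerase on its template. CDK1 is the kinase that drives entry into mitosis, topoisomerase II alpha (Top2a) untangles sister chromatids, and Ki-67 (Mki67) coats mitotic chromosomes and is the usual stain for cycling cells. p21, the product of Cdkn1a, inhibits cyclin-dependent kinases, binds PCNA and is a classic target of p53. Lung fibroblasts divide readily in culture, and the stiffness of their substrate is widely studied as an influence on their growth.

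Values are CPM, counts scaled to a common library size and adjusted between libraries by TMM, a method that aligns the bulk of genes. Library totals ran from 17285101 to 25334417 counts, and the 6 genes had between 196 and 35002 counts in a library. A gene was called at an adjusted p under 0.05 in edgeR's quasi-likelihood test (Benjamini-Hochberg over the 14258 genes that passed a filter on low counts), and a fold change is given on the log2 scale with its standard error (SE). All 6 genes passed that filter. Within 2 groups, a pair of libraries was closely alike (Plastic day 4 replicates 1 and 2, and Plastic day 14 replicates 2 and 3). The SD of their log2 differences over genes was 0.133 to 0.164, against 0.246 to 0.951 in the other 37 pairs. They differed by more than sampling noise and were kept apart.

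Of the 6 genes, 2 passed the test in any comparison. Pcna fell on PDMS to 76.6 ± 26.3 CPM at day 14, against 181 ± 48.8 CPM at day 2 (SD, n = 4 each), and Cdkn1a rose on plastic to 448 ± 108 CPM at day 14, against 147 ± 48.9 CPM at day 4 (SD, n = 4 each). In each of these 2 comparisons 1 of 6 members was called, against 51.6% and 32.6% of all genes. The mitotic genes Mki67, Top2a and Cdk1 passed in none, and their libraries within a group differed by up to 16.4-fold. No member passed between PDMS and plastic at any day, where 0%, 0.849% and 0% of all genes were called at days 4, 7 and 14. These are bulk libraries, in which fewer dividing cells and less mRNA per cell cannot be told apart.

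**Figure D1:**
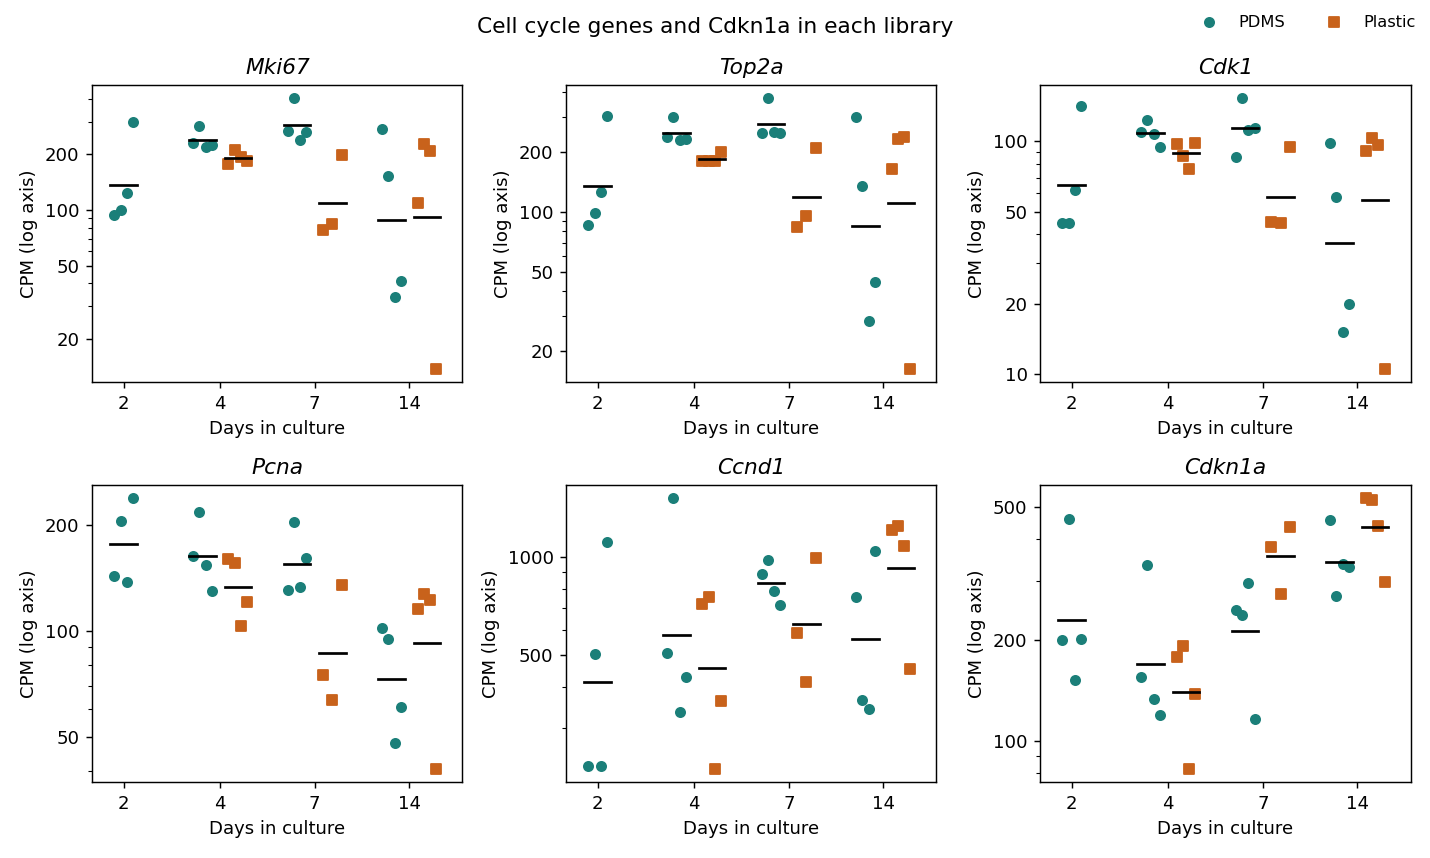
CPM of each of the 6 genes (log axis) in each of the 27 libraries, by surface and day; each point is a library and the black bar is the geometric mean of its group. Mki67, Top2a and Cdk1 sit close together at day 4 and spread widely at day 14, whereas all Cdkn1a values on plastic at days 7 and 14 lie above those on plastic at day 4.

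Mki67, the general marker of cycling cells, had 94.1, 100.4, 123 and 298 CPM on PDMS at day 2, then 229.6, 283, 219 and 225 CPM at day 4 (replicates 1 to 4). It had 269, 401, 239 and 265 CPM on PDMS at day 7 and 274, 153, 33.8 and 41.3 CPM at day 14. On plastic it had 177, 212, 194 and 183 CPM at day 4, 77.6, 84.0 and 197 CPM at day 7, and 109, 226, 208 and 13.8 CPM at day 14. The highest library of a group was 8.11 times the lowest on PDMS day 14, which had 2 low libraries, and 16.4 times on Plastic day 14, which had 1, against 1.19 to 3.16 times in the other 5 groups. Over the 27 libraries its highest value was 29.2 times its lowest.

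Top2a, which works in the same late phases of the cycle, ran from 16.2 to 372 CPM, a 23.0-fold range, with a median of 199.7 CPM. Cdk1 ran from 10.5 to 153 CPM, a 14.5-fold range, with a median of 94.4 CPM. In both genes the lowest library was Plastic day 14 replicate 4, followed by PDMS day 14 replicates 3 and 4, as it was for Mki67. Pcna shared these 3 lowest libraries in the same order. Cdkn1a and Ccnd1 did not: Plastic day 14 replicate 4 was the 17th lowest of 27 in Cdkn1a and the 10th lowest in Ccnd1. Within its own group, however, that library was the lowest in both. It held 298 CPM of Cdkn1a, against 439 to 531 CPM in the rest of the group. For Ccnd1 it held 456 CPM, against 1079 to 1247 CPM.

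Between surfaces at day 4, Mki67 averaged 239 ± 29.8 CPM on PDMS and 192 ± 15.1 CPM on plastic (SD, n = 4 each). Top2a averaged 249.7 ± 33.5 CPM on PDMS and 185 ± 9.65 CPM on plastic. For these 2 genes all 4 PDMS libraries lay above all 4 plastic libraries, and 4.15% of the 14258 genes had groups that did not overlap, in either direction, in this comparison. The fitted log2 difference of Mki67 was 0.32 ± 0.61 (SE; edgeR adjusted p = 0.994), with a 95% interval of -0.95 to 1.59. That of Top2a was 0.43 ± 0.62 (adjusted p = 0.978), with an interval of -0.85 to 1.71. The SE of these fits comes from the spread over all 7 groups, which was wider than that at day 4. By edgeR 0 of 6 members were called at day 4 and 0% of all genes, of which 8.74% had an unadjusted p under 0.05. Among the members 0 of 6 had an unadjusted p under 0.05, and DESeq2 and limma-voom called 0 of 6.

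At day 7 the mitotic genes had their largest fitted differences between surfaces. Mki67 averaged 294 ± 73.0 CPM on PDMS (SD, n = 4) and 119.7 ± 67.4 CPM on plastic (SD, n = 3), a log2 difference of 1.29 ± 0.68 (SE; edgeR adjusted p = 0.331). Top2a averaged 281 ± 60.6 CPM on PDMS and 129 ± 69.0 CPM on plastic, a difference of 1.12 ± 0.69 (adjusted p = 0.409). All PDMS libraries again lay above all plastic libraries for both genes, while groups lay apart, in either direction, for 18.3% of all genes at this day. Cdk1 had 85.9, 153, 111 and 114 CPM on PDMS, against 45.2, 44.6 and 94.4 CPM on plastic, so that the highest plastic library lay above the lowest on PDMS. Its difference was 0.92 ± 0.60 (adjusted p = 0.437).

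Pcna had 131, 204, 134 and 161 CPM on PDMS at day 7, against 74.8, 63.6 and 135 CPM on plastic. The groups overlapped through 1 plastic library, and the difference of 0.79 ± 0.35 had an unadjusted p of 0.0324 (edgeR adjusted p = 0.232). Cdkn1a had 246, 238, 297 and 116 CPM on PDMS at day 7, against 379, 274 and 437 CPM on plastic. The groups overlapped through 1 PDMS library, and the difference of -0.70 ± 0.39 (adjusted p = 0.363) was the only 1 of the 6 below 0 at this day. Ccnd1, the cyclin of the start of the cycle, averaged 840.2 ± 115 CPM on PDMS and 664 ± 296 CPM on plastic, a difference of 0.34 ± 0.58 (adjusted p = 0.809). By edgeR 0 of 6 members were called at day 7, against 0.849% of all genes, or 121. That number was 0 when PDMS day 7 replicate 1, 2 or 4 or Plastic day 7 replicate 1 was left out. It was 99 without PDMS day 7 replicate 3, and 193 and 31 without plastic replicates 3 and 4. An unadjusted p under 0.05 was found in 1 of 6 members, Pcna, and in 17.8% of all genes. DESeq2 called 0 of 6 members and 781 genes, and limma-voom called 0 of 6 and 42 genes.

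At day 14 the groups of all 6 genes overlapped between surfaces, while those of 5.90% of all genes lay apart. Mki67 averaged 126 ± 113 CPM on PDMS and 139 ± 98.2 CPM on plastic, and Top2a averaged 127 ± 125 CPM on PDMS and 162 ± 103 CPM on plastic (SD, n = 4 each). The fitted log2 differences of the 6 genes ran from -0.67 ± 0.54 for Ccnd1 to -0.15 ± 0.61 for Mki67, and the value for Mki67 changed sign when 1 of several libraries was left out. The interval of Mki67, from -1.41 to 1.12, leaves room for a change of more than 2-fold either way. By edgeR 0 of 6 members and 0% of all genes were called at day 14, 8.88% of all genes having an unadjusted p under 0.05. Among the members 0 of 6 had an unadjusted p under 0.05, and DESeq2 and limma-voom called 0 of 6. As a mean over days 4, 7 and 14, 0 of 6 members were called between PDMS and plastic, against 7.04% of all genes; 0 of 6 had an unadjusted p under 0.05, and the other 2 tools called 0 of 6. The values ran from -0.24 ± 0.22 for Cdkn1a to 0.49 ± 0.36 for Mki67.

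**Figure D2:**
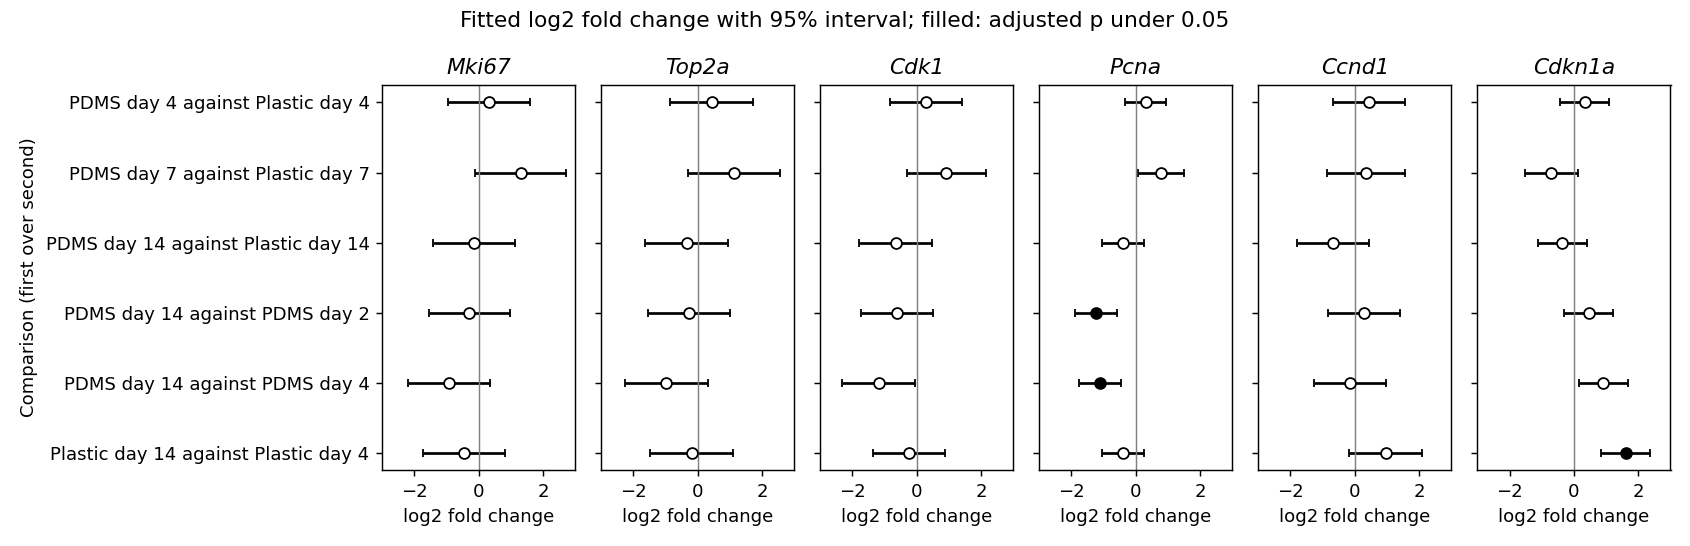
Fitted log2 fold change of each of the 6 genes in 6 comparisons, with its 95% interval; filled points passed the test at an adjusted p under 0.05. Filled points are Pcna at PDMS day 14 against PDMS day 2 and day 4, and Cdkn1a at Plastic day 14 against Plastic day 4.

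Time in culture gave the calls. Pcna, the replication clamp, had 143, 205, 138 and 238 CPM on PDMS at day 2, 164, 218, 153 and 130.03 CPM at day 4, and 102, 95.1, 48.05 and 60.8 CPM at day 14. All 4 libraries of day 14 lay below all 4 of day 2 and of day 4, and also below the 4 of day 7 given above. Pcna fell by 1.24 on the log2 scale at day 14 against day 2 (SE 0.32, edgeR adjusted p = 0.00281), which is 2.36-fold lower. Against day 4 it fell by 1.12 (SE 0.32, adjusted p = 0.0147), which is 2.17-fold lower. This second call was lost when replicate 2 of day 4 was left out (-0.92, adjusted p = 0.0570) and when replicate 3 of day 14 was (-0.95, adjusted p = 0.0517). Against day 7 the difference was -1.04 ± 0.32, just outside the threshold (adjusted p = 0.0540).

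These counts of members stand against a large background. For PDMS day 14 against day 2, 1 of 6 members was called, against 51.6% of all genes in either direction and 27.3% in the direction of Pcna, and 1 of 6 had groups that did not overlap, against 40.0% of all genes. For PDMS day 14 against day 4, 1 of 6 was called, against 28.6% of all genes and 15.2% that fell, and 1 of 6 did not overlap, against 33.3%. For PDMS day 14 against day 7, 0 of 6 members were called by edgeR, against 5.53% of all genes, and 1 of 6, Pcna, did not overlap, against 23.0%. The 788 genes behind that share became 376, 5, 595 and 62 when replicates 1 to 4 of day 7 were left out in turn. They became 702, 645, 22 and 240 when replicates 1 to 4 of day 14 were. In that comparison 2 of 6, Pcna and Cdk1, had an unadjusted p under 0.05, against 26.8% of all genes. DESeq2 called 1 of 6, Pcna, and 1833 of 13699 genes, and limma-voom called Pcna and 1033 of 14258 genes.

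The mitotic genes on PDMS were lower at day 14 than at day 4 in the fit, by 2.27-fold for Cdk1 (log2 -1.18 ± 0.55, edgeR adjusted p = 0.104), but 1 library decided the call for Cdk1 and Top2a. PDMS day 14 replicate 1 held 98.5 CPM of Cdk1, within the 94.9 to 123 CPM of day 4, while the other 3 libraries held 57.9, 15.2 and 20.1 CPM. Without that library, Cdk1 was at -1.81 (adjusted p = 0.0313) and Top2a at -1.85 (adjusted p = 0.0417), so that 3 of 6 members, with Pcna, passed, as did 3201 of 14237 genes. Mki67 was at -1.65 (adjusted p = 0.0662) without it and passed in 0 of the 8 fits that left out a library. Against day 2, Mki67 on PDMS day 14 was at -0.29 ± 0.61 and Top2a at -0.27 ± 0.62 (adjusted p = 0.711 and 0.732), and both changed sign when single libraries were left out. Between the earlier days on PDMS no member passed: 0 of 6 at day 4 against day 2, where 10.0% of all genes, or 1428, were called, and 0 of 6 at day 7 against day 4, where 0.147% were called. The 1428 genes became 56, 757, 489 and 3307 when replicates 1 to 4 of day 2 were left out in turn. They became 431, 1500, 476 and 238 when replicates 1 to 4 of day 4 were, and 0 with the 2 groups fitted alone. In these 2 comparisons 0 of 6 members had an unadjusted p under 0.05, and DESeq2 and limma-voom called 0 of 6. Over all genes these 2 tools called 2414 and 1225 at day 4 against day 2, and 383 and 7 at day 7 against day 4.

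Cdkn1a, the inhibitor, had 178, 192, 82.5 and 138 CPM on plastic at day 4 and 531, 523, 439 and 298 CPM at day 14. All 4 libraries of day 14 lay above all 4 of day 4, and so did the 3 of day 7. It rose 3.04-fold at day 14 against day 4 on plastic (log2 1.60 ± 0.37, edgeR adjusted p = 0.00330). Here 1 of 6 members was called, against 32.6% of all genes in either direction and 14.3% that rose, and 1 of 6 did not overlap, against 27.5%. Both pairs of closely alike libraries lie in these 2 groups. The 4641 genes called became 2375 of 14215 when each pair was summed, and 2519 of 13011 with the 2 groups fitted alone. At day 7 against day 4 on plastic its difference was 1.30 ± 0.39 with an unadjusted p of 0.00305 but an adjusted p of 0.149. In that comparison edgeR called 0 of 6 members and 0% of all genes, and 1 of 6 did not overlap, against 13.5% of all genes. An unadjusted p under 0.05 was found in 1 of 6 members and 18.7% of all genes, DESeq2 called 1 of 6, Cdkn1a (1.32, adjusted p = 0.0428), and limma-voom called 0 of 6. At day 14 against day 7 on plastic 0 of 6 members were called, against 0.0842% of all genes. An unadjusted p under 0.05 was found in 0 of 6, and the other 2 tools called 0 of 6. Over all genes DESeq2 called 364 there and limma-voom 0.

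On PDMS, Cdkn1a had 199.5, 462, 152 and 201 CPM at day 2, 155, 336, 134 and 119.6 CPM at day 4, and 457, 272, 337 and 329.7 CPM at day 14. The groups of days 4 and 14 overlapped through replicate 2 of day 4. The difference at day 14 against day 4 was 0.91 ± 0.37 (edgeR adjusted p = 0.0666), and it was 1.40 (adjusted p = 0.0136) without PDMS day 4 replicate 2. DESeq2 and limma-voom also put it past the threshold, at 0.90 (adjusted p = 0.0464) and 1.01 (adjusted p = 0.0451). Whether the day 14 against day 4 change differed between surfaces was tested as an interaction: for Cdkn1a it was -0.70 ± 0.52 (adjusted p = 0.853). That test called 0 of 6 members and 0% of all genes by edgeR; 0 of 6 members and 6.81% of all genes had an unadjusted p under 0.05, and DESeq2 and limma-voom called 0 of 6.

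Ccnd1 passed in no comparison. It had 229.7, 505, 229 and 1107 CPM on PDMS at day 2 and 509, 1511, 335 and 429.8 CPM at day 4, so that 1 library in each group was more than 2 times the next. Its tightest group was PDMS day 7, from 711 to 976 CPM. On plastic it averaged 997 ± 368 CPM at day 14 and 515 ± 262 CPM at day 4 (SD, n = 4 each), a log2 difference of 0.95 ± 0.54 (edgeR adjusted p = 0.179).

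Ordered by group mean, Mki67, Top2a and Cdk1 were each highest on PDMS day 7, then PDMS day 4, then Plastic day 4. Only the step between PDMS day 4 and Plastic day 4 separated neighbouring groups without overlap, in Mki67 and Top2a but not in Cdk1. Pcna was highest on PDMS day 2 and lowest on PDMS day 14, with each neighbouring pair of groups overlapping. Cdkn1a and Ccnd1 were both highest on Plastic day 14 and lowest on Plastic day 4, again with each neighbouring pair overlapping.

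The group explained 34.9% of the variance of log2 CPM in Mki67, 31.4% in Top2a, 34.7% in Cdk1 and 25.4% in Ccnd1. It explained 56.2% in Pcna and 59.7% in Cdkn1a, and 51.1% in the median tested gene. The residual SD within groups was 1.01 for Mki67 and 1.02 for Top2a on the log2 scale, against 0.347 for the median gene. A larger residual SD than that of Mki67 was found in 10.4% of tested genes.

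In the groups of wide spread, libraries that were high in 1 mitotic gene were high in the others. The largest deviations from a group mean were those of Plastic day 14 replicate 4, at -2.73 in Mki67, -2.76 in Top2a and -2.40 in Cdk1 (log2). In the narrow group Plastic day 4 this did not hold. There replicate 2 was the highest in Mki67 (0.15 above the mean) but below the mean in Top2a (-0.035) and Cdk1 (-0.043). Over the 27 libraries, log2 CPM of Mki67 correlated with Top2a at r = 0.988, with Cdk1 at 0.968, with Pcna at 0.818, with Ccnd1 at 0.319 and with Cdkn1a at -0.245. After each group mean was removed the values were 0.990, 0.975, 0.870, 0.467 and 0.250. Ccnd1 and Cdkn1a correlated with each other at 0.569 over the 27 libraries and 0.667 within groups. These are descriptions over libraries that share groups, with no test. Of the 14257 other tested genes, 210 correlated with Mki67 above 0.9, Top2a being the 3rd most alike, while 0 did so with Cdkn1a. The most alike IDs were ENSRNOG00000037211 (0.990) and ENSRNOG00000056069 (0.988) for Mki67, and ENSRNOG00000003256 (0.897) and ENSRNOG00000006304 (0.895) for Cdkn1a, which no table used here names.

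**Figure D3:**
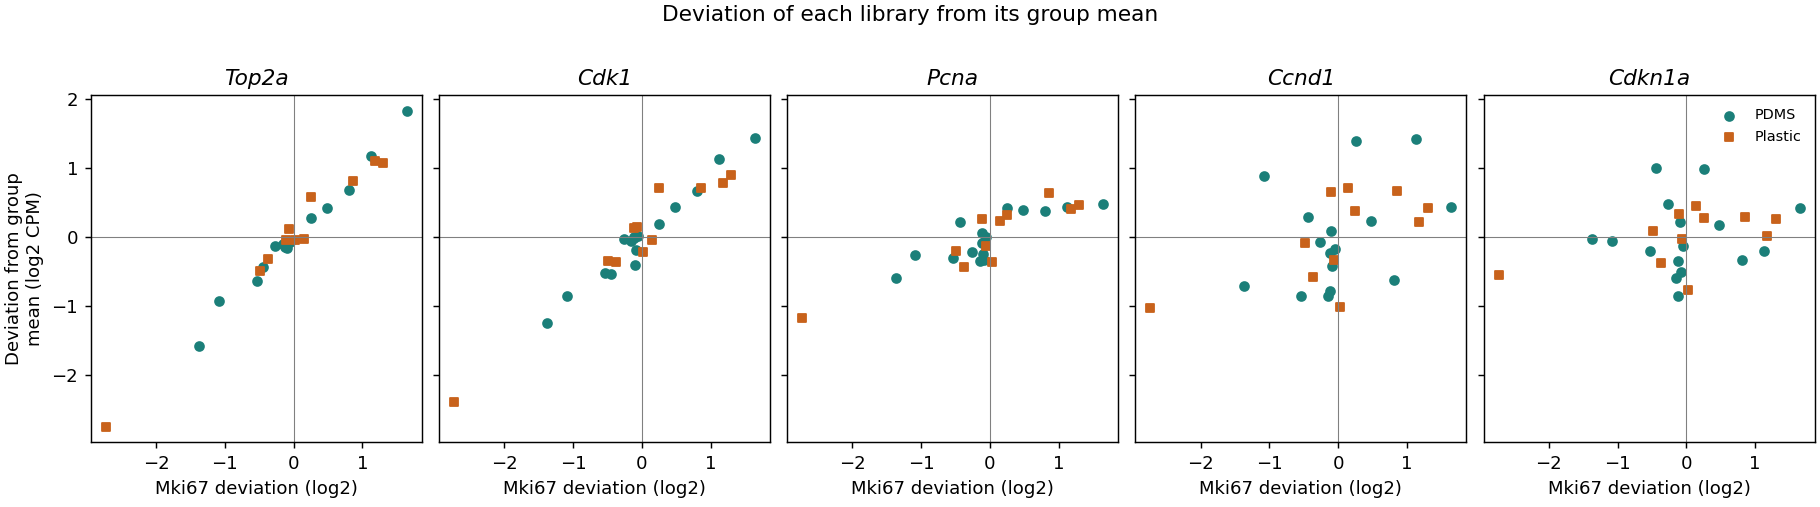
Deviation of each library from its group mean (log2 CPM) in 5 genes, on the vertical axes, against the same deviation in Mki67, on the horizontal axes; circles are PDMS and squares plastic, 27 libraries in each panel. Top2a and Cdk1 follow Mki67 along the diagonal (r = 0.990 and 0.975), Pcna follows on a shallower slope (r = 0.870), and Ccnd1 and Cdkn1a scatter (r = 0.467 and 0.250).

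The difference between log2 CPM of Cdkn1a and of Mki67 sets the inhibitor against the cycling marker within each library; CPM is not per length, so only its change between groups can be read. Its group means on PDMS were 0.76 at day 2, -0.48 at day 4, -0.44 at day 7 and 1.97 at day 14 (SD 1.18, 0.51, 0.66 and 1.375). The PDMS day 14 libraries lay far apart, at 0.74, 0.83, 3.31 and 2.99 (replicates 1 to 4). On plastic the means were -0.45 at day 4, 1.71 at day 7 and 2.25 at day 14 (SD 0.55, 0.57 and 1.55). The Plastic day 14 libraries were at 2.28, 1.21, 1.08 and 4.43. Of these only replicate 4 lay above the highest library of Plastic day 7, at 2.29. On plastic the mean was thus lowest at day 4, the first day sampled there. On PDMS the means of days 4 and 7 were close, with overlapping libraries, and lay below those of days 2 and 14. No test was made of these differences.

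The promoters of these genes are shown as RefSeq windows of the GRCr8 build, from 250 bases before to 50 bases after the annotated start. Whether the promoters bear on how the genes varied was not tested. Windows were at hand for 5 of the 6 genes. Each is printed along the gene, 5′ to 3′. Capitals mark the CCAAT box (the word CCAAT on either strand). They also mark the cell cycle genes homology region, or CHR (the word TTTGAA on either strand). The variant TTCGAA is in capitals too. In Cdkn1a they mark a p53 response element. The windows are chr1:199952544-199952843 (minus strand) for Mki67, chr10:84473044-84473343 (minus strand) for Top2a, chr20:19265043-19265342 (plus strand) for Cdk1, chr3:139955771-139956070 (minus strand) for Pcna and chr20:7150682-7150981 (plus strand) for Cdkn1a.
Mki67: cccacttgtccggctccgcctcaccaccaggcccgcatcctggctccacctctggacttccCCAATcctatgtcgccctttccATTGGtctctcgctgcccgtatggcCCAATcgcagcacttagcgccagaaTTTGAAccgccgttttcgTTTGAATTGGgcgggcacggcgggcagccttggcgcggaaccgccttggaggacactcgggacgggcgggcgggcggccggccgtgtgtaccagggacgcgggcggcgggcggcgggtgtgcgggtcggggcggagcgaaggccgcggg
Top2a: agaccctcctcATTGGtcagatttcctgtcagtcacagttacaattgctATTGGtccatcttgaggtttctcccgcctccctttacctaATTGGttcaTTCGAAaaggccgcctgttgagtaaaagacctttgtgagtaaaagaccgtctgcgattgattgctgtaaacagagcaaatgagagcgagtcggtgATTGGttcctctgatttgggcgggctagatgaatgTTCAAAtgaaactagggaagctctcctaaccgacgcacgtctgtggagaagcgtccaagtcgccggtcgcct
Cdk1: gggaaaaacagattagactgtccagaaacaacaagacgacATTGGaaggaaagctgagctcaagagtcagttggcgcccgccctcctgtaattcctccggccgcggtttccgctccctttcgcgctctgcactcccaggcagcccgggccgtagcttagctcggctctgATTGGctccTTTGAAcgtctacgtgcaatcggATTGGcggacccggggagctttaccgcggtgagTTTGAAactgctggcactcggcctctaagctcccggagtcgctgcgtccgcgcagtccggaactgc
Pcna: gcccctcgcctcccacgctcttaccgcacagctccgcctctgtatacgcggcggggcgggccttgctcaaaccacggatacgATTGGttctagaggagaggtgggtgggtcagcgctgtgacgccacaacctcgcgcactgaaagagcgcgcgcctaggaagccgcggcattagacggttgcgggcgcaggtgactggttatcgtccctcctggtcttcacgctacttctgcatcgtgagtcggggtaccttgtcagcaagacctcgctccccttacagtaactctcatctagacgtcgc
Cdkn1a: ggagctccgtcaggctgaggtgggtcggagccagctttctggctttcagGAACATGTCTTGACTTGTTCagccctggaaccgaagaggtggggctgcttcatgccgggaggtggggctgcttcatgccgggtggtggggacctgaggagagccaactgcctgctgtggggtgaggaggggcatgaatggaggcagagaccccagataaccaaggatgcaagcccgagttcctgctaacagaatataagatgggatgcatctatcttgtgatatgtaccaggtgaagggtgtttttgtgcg

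CCAAT boxes bind the factor NF-Y, and CHR elements bind the DREAM and MuvB complexes, which hold mitotic genes down in resting cells and switch them on late in the cycle. The words and windows were chosen after the promoter letters had been seen, so the counts describe these 5 genes only. The Mki67 window held 4 CCAAT words and 2 CHR words, of which the second CHR word (-99 to -94, counted from the start) shares a base with a CCAAT word (-94 to -90). The Top2a window held 4 CCAAT words, 1 CHR word and 1 CHR variant, and the Cdk1 window 3 CCAAT words and 2 CHR words. The Pcna window held 1 CCAAT word and no CHR word or variant, and that of Cdkn1a held none of these. Of the 33469 promoter windows of the same length, 37.49% held CCAAT, 18.35% held a CHR word, 1.69% held the variant and 7.95% held CCAAT with either.

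E2F factors act at the start of DNA replication. The E2F words searched on both strands were TTTCCCGC, TTTCGCGC, TTTGGCGC and TTTGCCGC, and 2.14% of all windows held 1 of them. Among the 5 genes they matched once, in Cdk1 at -133 to -126. The GC box word GGGCGG, bound by SP1, was found 7 times in Mki67, once each in Top2a, Cdk1 and Pcna and in 33.06% of all windows. The p53 response element, searched as 2 adjoining copies of its consensus site with at most 1 mismatch in all, was found in Cdkn1a as GAACATGTCTTGACTTGTTC, with 1 mismatch, at -201 to -182. It was found in 24 of all windows, which is 0.07%. Some CCAAT, CHR and GC words overlap each other, and a match of letters is not a shown binding site. Each gene had 1 window, at 1 annotated start, and whether these cells use that start was not tested.

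**Figure D4:**
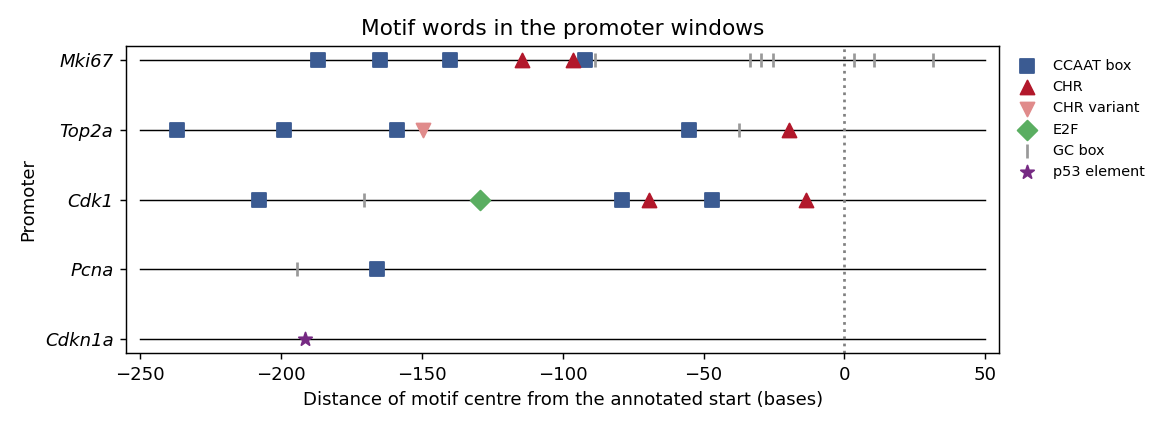
Position of each matched word in the promoter windows of 5 genes, as distance in bases from the annotated start; marks show the kind of word. The Mki67, Top2a and Cdk1 windows hold 3 to 4 CCAAT words with 1 to 2 CHR words, and the Cdkn1a window holds the p53 element alone.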

How the data were processed

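The authors deposited raw counts per gene, as whole numbers, in 1 column per library; a column of no listed sample (1) was not used. Per the submitters' processing notes, the tools included FastQC 0.11.2, STAR 2.5.2a, Cufflinks 2.2.1 and DESeq2. Per the series design text, duplication was assessed with bamUtil 1.0.11 and dupRadar 1.4. Not given in the sources used here were the genome build, annotation, strand setting and counting program. Without strand information, reads of a gene and of an overlapping antisense gene cannot be told apart.

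From the counts, genes were filtered with filterByExpr (minimum count 10, minimum total 15) and 14258 of 32753 were tested in edgeR 4.0.16 (R 4.3.3) with TMM scaling and a quasi-likelihood fit of 7 group means to the 27 libraries (20 residual degrees of freedom), two-sided. log2 CPM used a prior count of 2. Total counts per library ran from 17285101 to 25334417, and their TMM factors from 0.877 to 1.19. An SE is the fold change divided by the root of its F value.

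Groups came from the library titles, and the text names all 6 genes in each set of comparisons plus the 2 most alike IDs of Mki67 and of Cdkn1a. Members, lists and comparisons were chosen with earlier results of these data known; lists of other cell cycle genes and cell type markers, written as symbols, were not applied because no table pairs them with the IDs. Alternatives were scaling by library size or RLE, DESeq2 1.42.0, limma-voom (limma 3.58.1), no filter, the 2 groups alone, the replicate number as a block and each library left out. Summing closely alike libraries was added after seeing the data.

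Same-numbered libraries deviated together, with every correlation over 0.1, in 1 of the 11 comparisons of 2 groups, PDMS day 4 against day 2 (0.14 to 0.57 over 4 pairs); the pairing comes from the labels' replicate numbers, whose meaning is not stated. The fitting scripts were tested on simulated data, in which each gene had the same spread in all groups. That test cannot show how the fit behaves where the spread differs between groups. For Mki67 the SD of log2 CPM was 0.11 on Plastic day 4 and 1.88 on Plastic day 14.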

Additional observations from a re-analysis of the deposited data

Results flagged for a closer look

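In groups of 4, a library was taken to stand apart where its gap to the nearest of the others, on the log2 CPM scale, was more than 0.829 of the group's range. Of the 36 groups tested, 6 genes in each of the 6 groups of 4, 7 held such a library, where chance gives about 1.8. Genes of 1 library are not independent, and the causes were not tested.

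Plastic day 14 replicate 4 accounts for 4 of them, each time with the lowest value. It held 16.2 CPM of Top2a, against 164 to 237 CPM in the other 3 libraries. It held 10.5 CPM of Cdk1, against 91.4 to 104 CPM. It held 40.6 CPM of Pcna, against 115 to 127 CPM, and 456 CPM of Ccnd1, against 1079 to 1247 CPM. Its 13.8 CPM of Mki67 was the lowest of the 27 libraries but fell short of this limit, because the other 3 ran from 109 to 226 CPM. Without this library Top2a at Plastic day 14 against Plastic day 4 changed sign, to 0.19, and Cdk1 to 0.12, while the number of members called stayed at 1.

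Top2a had such a library in 3 further groups, each time a high one in a narrow group. PDMS day 4 replicate 2 held 299.7 CPM, against 229.8 to 237 CPM in the others. PDMS day 7 replicate 2 held 372 CPM, against 248 to 253 CPM. Plastic day 4 replicate 4 held 199.7 CPM, against 180.3 to 180.7 CPM.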

How the results depend on the processing

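Across 8 alternatives, 78 fold changes each (6 genes in 13 comparisons) were recomputed. Direction and side of the threshold held in all 78 with library size scaling, RLE scaling and no filter. Library size scaling moved the median of all genes by over 0.1 in some comparisons without changing a call of a member. Calls of all genes did change, from 1004 to 1625 over the mean of days between surfaces. The share of these that were higher on PDMS went from 23.11% to 62.46%. Between surfaces the calls went from 121 to 60 at day 7 and from 0 to 8 at day 14.

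The count of members called at PDMS day 14 against day 4, 1 by edgeR as reported, was 2 with DESeq2, limma-voom and the replicate block, with Cdkn1a added (1.04, adjusted p = 0.0192, with the block). At PDMS day 14 against day 7, 0 by edgeR as reported, it was 1 (Pcna) with DESeq2 (-1.03, adjusted p = 0.0209), limma-voom (-1.09, 0.0467), the replicate block (-1.06, 0.0392) and the 2 groups alone (-1.03, 0.0355). At Plastic day 7 against day 4 it was 1 with DESeq2 (Cdkn1a, 1.32). The block changed no other call; at PDMS day 4 against day 2 it called 0 members. The cause of these moves was not tested. At PDMS day 14 against day 4, DESeq2 called 4898 of 14251 genes. There limma-voom called 3890 and the block 4421, each of 14258 genes. At PDMS day 14 against day 7 the counts of genes were 1833 of 13699, 1033 of 14258 and 1006 of 14258. With the 2 groups alone 1998 of 12873 genes were called there. Over all genes, where edgeR called 0, DESeq2 called 24 and limma-voom 0 at day 4 between surfaces, 113 and 2 at day 14, 388 and 2 at Plastic day 7 against day 4, and 4 and 0 in the interaction.

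Signs turned in values that were not called: with limma-voom at Plastic day 14 against day 7 for Mki67 (-0.25), Top2a (-0.11) and Cdk1 (-0.043), with the replicate block for Ccnd1 over the mean of days (-0.025), and with closely alike libraries summed for Mki67 at PDMS day 14 against Plastic day 14 (0.15) and at Plastic day 14 against day 7 (-0.079).

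Leaving out single libraries gave 1 to 2 members called at PDMS day 14 against day 2 (2 without PDMS day 2 replicate 2, where Cdkn1a was at 0.90, adjusted p = 0.0423), 0 to 3 at PDMS day 14 against day 4 (3 without PDMS day 14 replicate 1, 0 without replicate 3) and 0 to 1 at PDMS day 14 against day 7 (1 without PDMS day 14 replicate 1, where Pcna was at -1.21). Over all genes the same fits called 6403 to 7258, 2590 to 3848 and 5 to 702 in these 3 comparisons. The other shares of all genes moved too: 3075 to 5319 genes at Plastic day 14 against day 4, 434 to 1423 over the mean of days, 1 to 10 at PDMS day 7 against day 4 and 0 to 4 at Plastic day 14 against day 7. Where edgeR called 0 genes, such fits gave up to 245 at day 4 and 88 at day 14 between surfaces, 528 at Plastic day 7 against day 4 and 0 in the interaction. Uncalled log2 values that changed sign had these ranges. At PDMS day 14 against day 2 they were -1.01 to 0.30 for Mki67, -1.15 to 0.35 for Top2a and -0.086 to 1.01 for Ccnd1. At PDMS day 14 against day 4, Ccnd1 ran from -0.51 to 0.60. At PDMS day 4 against day 2, Pcna ran from -0.28 to 0.054 and Ccnd1 from -0.29 to 1.14. At PDMS day 7 against day 4, Cdk1 ran from -0.017 to 0.27 and Pcna from -0.18 to 0.14. Between surfaces, Ccnd1 ran from -0.29 to 0.67 and Cdkn1a from -0.12 to 0.50 at day 4, Mki67 from -0.87 to 0.19 at day 14, and Cdk1 from -0.028 to 0.33 and Ccnd1 from -0.19 to 0.17 over the mean of days. On plastic, Top2a ran from -0.43 to 0.19 and Cdk1 from -0.44 to 0.12 at day 14 against day 4, Ccnd1 from -0.042 to 0.61 at day 7 against day 4, and Mki67 from -0.12 to 0.78 and Pcna from -0.048 to 0.55 at day 14 against day 7. Precision was read from the spread between libraries, and depth was not varied.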
